A study of Mus musculus with 2 samples.

Results

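The 6 genes described here are the copies of let-7a, let-7c and let-7f that carry a copy number in their symbol: Mirlet7a-1, Mirlet7a-2, Mirlet7c-1, Mirlet7c-2, Mirlet7f-1 and Mirlet7f-2. Members were found by symbol, through their Ensembl identifiers in the GENCODE M21 annotation, and the set was proposed with earlier results of these data known. They are 6 of the 2202 microRNA genes counted. The samples were hearts of male B6CASTF1/J mice at 2 months of age, sequenced as 2 small RNA libraries of fragments under 30 bases. B6CASTF1/J is an F1 hybrid of 2 inbred strains, and no treatment was given in the labels. The sample descriptions number the libraries as different males, while both carry the same donor identifier. They form 1 group of 2 replicates, and no comparison of conditions exists.

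let-7 is a large family of microRNAs with a shared seed, the short stretch near the 5′ end that pairs with target messages. Each gene is transcribed as part of a longer RNA, from which a hairpin is cut and then trimmed to a 5p arm and a 3p arm. The 5p arm is the one usually loaded into the silencing complex, and the 3p arm is usually the less stable strand. let-7 is known to be abundant in differentiated tissues, the adult heart among them, and to repress growth genes such as Hmga2 and the Ras genes. LIN28, a protein of early development, binds let-7 precursors and blocks their maturation.

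The mature 5p arms are shown first because they set which reads can be assigned to a gene. The sequences are from RefSeq (GRCm38.p6), written 5′ to 3′, with the seed (bases 2 to 8) in capitals. All 6 hairpins matched an entry at the position and with the sequence that GENCODE M21 gives. For Mirlet7a-2 only the 3p arm is entered, and its 5p arm was placed by finding the let-7a-5p sequence in the hairpin.
let-7a-5p: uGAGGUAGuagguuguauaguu
let-7c-5p: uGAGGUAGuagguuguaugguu
let-7f-5p: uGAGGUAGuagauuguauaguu
The 3 forms share the seed GAGGUAG. Counted from base 1 at the 5′ end, let-7a-5p differs from let-7c-5p by A19G and from let-7f-5p by G12A, and let-7c-5p differs from let-7f-5p by G12A and G19A. Each of these arms is present whole in the hairpins of both copies of its form and in no other hairpin of the 2202 on the same strand. A read that lies within such an arm fits both copies equally. The deposited files count reads mapped to several places in a row of their own, and not for any gene. The counts below are therefore those of reads placed at a single position. How many mismatches or untemplated bases a placed read could carry is not given in the sources used here, so which reads were placed at a single copy is unknown. None of the counts is a level of mature let-7a, let-7c or let-7f.

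What lies next to the 5p arm differs between the copies. In these lines the mature arm is in lower case, and capitals mark the 3 bases before it and the 8 bases after it in the hairpin.
Mirlet7a-1: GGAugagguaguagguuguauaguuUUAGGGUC
Mirlet7a-2: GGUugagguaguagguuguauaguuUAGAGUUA
Mirlet7c-1: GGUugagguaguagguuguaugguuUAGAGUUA
Mirlet7c-2: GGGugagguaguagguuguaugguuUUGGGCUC
Mirlet7f-1: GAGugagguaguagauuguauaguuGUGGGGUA
Mirlet7f-2: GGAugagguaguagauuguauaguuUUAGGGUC
With base 1 as the first base of the mature arm, the first difference after the arm between copy 1 and copy 2 was U24A for let-7a, A24U for let-7c and G23U for let-7f. A templated read that starts at base 1 thus has to be at least 24 bases long to separate the copies of let-7a or let-7c, and 23 bases long for let-7f. The base just before the arm differed between the copies of every form. The 8 bases after the arm were the same in Mirlet7a-1 and Mirlet7f-2, and the same in Mirlet7a-2 and Mirlet7c-1.

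The 3p arms separate most copies, and are shown with their seeds in capitals.
let-7a-1-3p: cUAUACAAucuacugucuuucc
let-7c-2-3p: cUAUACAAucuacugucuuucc
let-7f-1-3p: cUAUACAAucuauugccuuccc
let-7f-2-3p: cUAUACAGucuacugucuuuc
let-7a-2-3p: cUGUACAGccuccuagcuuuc
let-7c-1-3p: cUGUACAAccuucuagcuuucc
The 3p arms of Mirlet7a-1 and Mirlet7c-2 were identical over 22 bases, although their 5p arms belong to different forms. With let-7f-1-3p they share the 3p seed UAUACAA. The 3p arms of Mirlet7f-2, Mirlet7a-2 and Mirlet7c-1 each had a seed of their own among the 6. From the arm of Mirlet7f-1 to that of Mirlet7f-2 the seed differed by A8G, and from that of Mirlet7a-2 to that of Mirlet7c-1 by G8A. The 3p arms of Mirlet7a-2, Mirlet7c-1, Mirlet7f-1 and Mirlet7f-2 were found in no other microRNA hairpin on the same strand. Between the copies of a form, the 3p arms of let-7a differed at 6 of 21 compared bases, those of let-7c at 5 of 22 and those of let-7f at 4 of 21.

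The hairpins of a form were not the most alike. Mirlet7a-1 and Mirlet7f-2 were identical in 79.8% of aligned positions and Mirlet7a-2 and Mirlet7c-1 in 79.4%, the highest values among the 15 pairs of members. The copies of let-7f reached 72.2%, those of let-7a 68.9% and those of let-7c 67.3%. The hairpins of let-7f are printed because this form showed the widest gap between its copies, with the mature arms in capitals.
Mirlet7f-1: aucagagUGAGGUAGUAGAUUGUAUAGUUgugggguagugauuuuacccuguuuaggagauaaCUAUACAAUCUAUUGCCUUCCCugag
Mirlet7f-2: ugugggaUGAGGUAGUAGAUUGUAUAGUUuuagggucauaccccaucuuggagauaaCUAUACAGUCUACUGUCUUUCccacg
The loop between the arms has 34 bases in Mirlet7f-1 and 28 in Mirlet7f-2, and the hairpins are 89 and 83 bases long.

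How much of each hairpin is shared with other microRNA hairpins was counted for every stretch of 15 to 30 bases. At 22 bases, the length of most let-7 arms, Mirlet7a-1 and Mirlet7c-2 each had 7 stretches that also lie in a hairpin elsewhere, Mirlet7a-2 and Mirlet7c-1 each had 2, and Mirlet7f-1 and Mirlet7f-2 each had 1. The last shared stretch was 26 bases long for Mirlet7a-1 and Mirlet7c-2, which share it with each other. It was 23 bases long for Mirlet7a-2 and Mirlet7c-1, and 22 for the let-7f genes, in each case with the other copy of the form, and for Mirlet7f-2 also with Gm24111, a predicted microRNA gene on the opposite strand at the place of Mirlet7f-1. Among the single-locus let-7 genes, which have no second copy of their mature form, none of the 6 in the files had a shared stretch of 22 bases. Only the annotated hairpins were searched and not the whole genome. No stretch tells how many of the reads mapped to several places came from let-7.

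**Figure D1:**
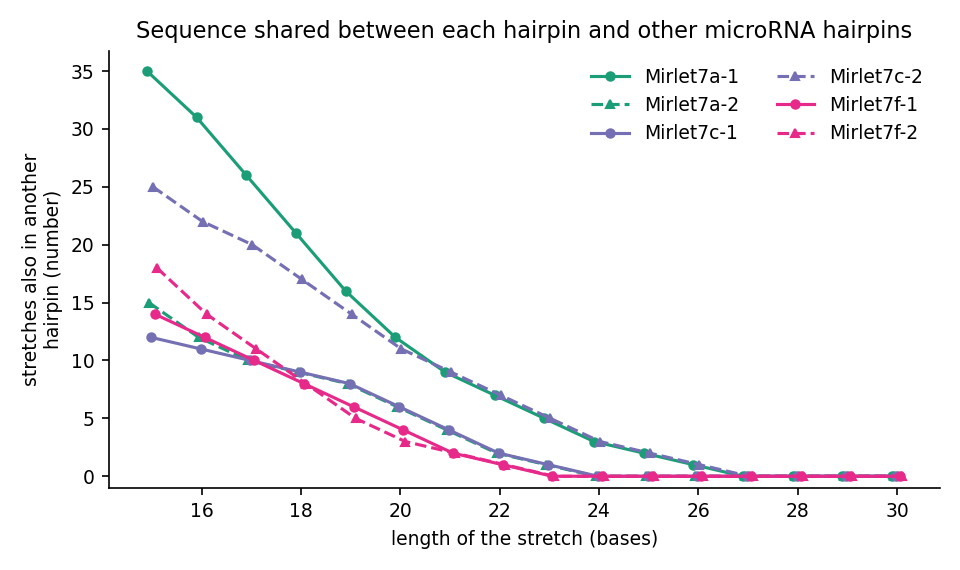
Number of stretches of a hairpin (vertical axis) that also occur in the hairpin of a microRNA gene at another place, by the length of the stretch in bases (horizontal axis), for the 6 let-7 genes. Lines for Mirlet7a-1 and Mirlet7c-2 stay above the rest between 18 and 26 bases, and the lines of the let-7f genes reach 0 at 23 bases.

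Sense reads on microRNA genes numbered 3650782 in replicate 1 and 3810675 in replicate 2. Reads mapped to several places numbered 4968988 and 4868319, which was 119 and 121 times the reads counted for the 6 genes. Levels are given as CPM, the count scaled to a total of 1000000 sense reads on microRNA genes, and were computed for this report from the deposited counts. The floor of 3 counts lay at 0.822 and 0.787 CPM, and all 6 genes had at least 956 counts in each library. As a check of the tissue label, the heart muscle microRNA genes Mir208a and Mir499 were between 1329 and 4265 CPM, and Mir208b was at 24.7 and 118 CPM. Markers of other cell types of a whole heart were present too, with the endothelial Mir126a at 52212 and 70228 CPM, the smooth muscle genes Mir143 and Mir145a between 2953 and 50331 CPM, 3 leukocyte genes between 428 and 4069 CPM and 3 erythroid genes between 411 and 1925 CPM. The liver gene Mir122 was at 142 and 97.9 CPM and the skeletal muscle gene Mir206 at 37.0 and 303 CPM. The 6 neuronal genes were at 27.7 CPM or less, and being copies of miR-124 and miR-9 they too lose reads that fit several places. The cell type in which any let-7 copy is made was not measured.

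The let-7 copies were counted at widely different levels, from 289 to 7280.3 CPM in the mean of both libraries. Their sum made up 1.14% of the microRNA counts in replicate 1, with a Clopper-Pearson 95% interval of 1.13 to 1.15. It made up 1.05% (1.04 to 1.06) in replicate 2, which gave a mean of 1.10% ± 0.0613 (SD, n = 2). These intervals, like all others here, cover counting error only, since reads amplified without a molecular identifier are not independent molecules. Mirlet7f-2 alone made up 64.7% of the counts of the 6 genes in replicate 1 and 68.1% in replicate 2.

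let-7f showed the highest level of the 6 genes and also the lowest, the latter close to that of Mirlet7a-2. Mirlet7f-2 was counted 26963 times in replicate 1 and 27342 times in replicate 2, or 7386 and 7175 CPM, a mean of 7280.3 CPM ± 149 (SD, n = 2). It ranked 22 among the 2202 genes. It lies at chrX:151912346-151912428 of mm10 on the plus strand, in an intron of Huwe1, which encodes a ubiquitin ligase. Mirlet7f-1 had 1194 and 956 counts, or 327 and 251 CPM, a mean of 289 CPM ± 53.9 (SD, n = 2) and rank 100. It lies at chr13:48537829-48537917 on the minus strand, in an exon of the long non-coding RNA gene 6720427I07Rik. Every library had more reads for Mirlet7f-2 than for Mirlet7f-1, and the ranges of the genes over the libraries lay far apart.

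The level of Mirlet7f-1 depends on strand. The predicted microRNA gene Gm24111 overlaps it on the opposite strand, and in the column that ignores strand Mirlet7f-1 had 0 counts in both libraries. Gm24111 had 0 counts on its own strand. In the column for the opposite strand it had 1194 and 956, the same numbers as Mirlet7f-1 on the strand of Mirlet7f-1. No read was counted on the opposite strand for any of the 6 genes.

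The let-7c genes came next. Mirlet7c-2 was counted 6944 times in replicate 1 and 5995 times in replicate 2, or 1902 and 1573 CPM, with a mean of 1738 CPM ± 233 (SD, n = 2) and rank 50. It lies at chr15:85706603-85706697 on the plus strand, in an exon of the processed transcript Lncppara. Mirlet7c-1 had 1987 and 1751 counts, or 544 and 459 CPM, a mean of 502 CPM ± 59.9 (SD, n = 2) and rank 84. It lies at chr16:77599657-77599750 on the plus strand in an intron of Mir99ahg, the host gene of the miR-99a cluster, and the protein-coding gene model Gm11146 spans it on the opposite strand. Both libraries ranked Mirlet7c-2 above Mirlet7c-1, with no overlap.

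The let-7a genes followed. Mirlet7a-1 was counted 3346 times in replicate 1 and 2940 times in replicate 2, or 917 and 772 CPM, a mean of 844 CPM ± 103 (SD, n = 2) and rank 71. It lies at chr13:48538179-48538272 on the minus strand, also in an exon of 6720427I07Rik. Mirlet7a-2 had 1215 and 1187 counts, or 333 and 311 CPM, a mean of 322 CPM ± 15.1 (SD, n = 2) and rank 96. It lies at chr9:41536716-41536811 on the plus strand, in introns of the non-coding genes 3110039I08Rik and Gm49317. Mirlet7a-1 exceeded Mirlet7a-2 in both libraries.

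From high to low, the mean levels ran Mirlet7f-2, Mirlet7c-2, Mirlet7a-1, Mirlet7c-1, Mirlet7a-2 and Mirlet7f-1, and the order was the same when each CPM was divided by the length of the hairpin. Neighbours in this order kept their order in both libraries. The closest neighbours were Mirlet7a-2 and Mirlet7f-1, with a ratio of 1.02 in replicate 1 and 1.24 in replicate 2, and their mean log2 ratio of 0.17 ± 0.20 (SD, n = 2) did not exceed its spread. The other steps were 1.63 and 1.47 times from Mirlet7c-1 to Mirlet7a-2, 1.68 and 1.68 times from Mirlet7a-1 to Mirlet7c-1, 2.07 and 2.04 times from Mirlet7c-2 to Mirlet7a-1, and 3.88 and 4.56 times from Mirlet7f-2 to Mirlet7c-2, each larger than the spread between libraries.

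**Figure D2:**
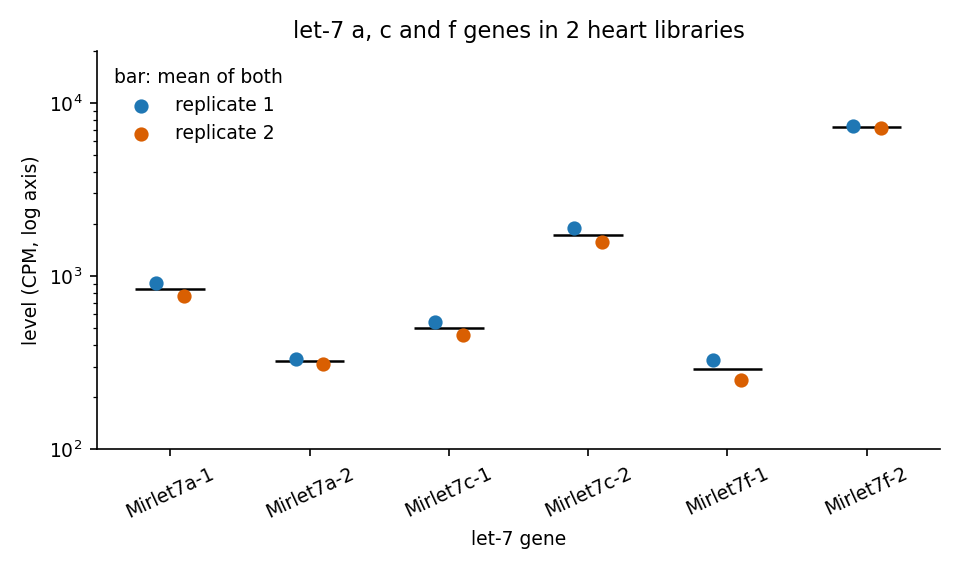
Level in CPM (vertical log axis) of each let-7 gene (horizontal axis) in replicate 1 and replicate 2 as points, with the mean of both as a bar. Mirlet7f-2 stands at 7386 and 7175 CPM, while Mirlet7a-2 and Mirlet7f-1 lie between 251 and 333 CPM.

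The copies of every form were unequal, and which copy was higher was the same in both libraries. For let-7a, copy 1 was higher, 2.75 times in the first library and 2.47 times in the second. The log2 ratio of copy 1 to copy 2 was 1.38 ± 0.11 (mean and SD, n = 2). For let-7c, copy 2 was higher, by 3.49 and 3.42 times, and the log2 ratio was -1.79 ± 0.02 (mean and SD, n = 2). For let-7f, copy 2 was higher by 22.5 and 28.5 times, and the log2 ratio was -4.67 ± 0.24 (mean and SD, n = 2). The ratios were taken from CPM + 0.5, and each mean was many times its spread. With 2 libraries an exact sign-flip permutation test cannot give a p below 0.5, so none was run. These are ratios of reads that fit 1 place, and the reads shared by both copies are missing from both sides. Other losses fall on 1 copy only. The 3p arms of Mirlet7a-1 and Mirlet7c-2 are identical, so a read within them fits both of these genes equally. Those of Mirlet7a-2 and Mirlet7c-1 lie in no other annotated hairpin. The let-7a and let-7c ratios thus compare copies that differ in which reads can be counted. For let-7f, the base after the 5p arm is G in Mirlet7f-1 and U in Mirlet7f-2. A whole let-7f-5p read with 1 untemplated U at its end would match Mirlet7f-2 in full, but not Mirlet7f-1. Whether such reads were counted is unknown. How far any of this moves the 3 ratios was not measured.

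As shares of the counts of a form, Mirlet7a-1 held 73.4% (Clopper-Pearson 95% interval 72.1 to 74.6) in replicate 1 and 71.2% (69.8 to 72.6) in replicate 2. Mirlet7c-1 held 22.2% (21.4 to 23.1) and 22.6% (21.7 to 23.6) of the let-7c counts. Mirlet7f-1 held 4.24% (4.01 to 4.48) and 3.38% (3.17 to 3.60) of the let-7f counts. The intervals of the 2 libraries overlapped for let-7a and let-7c and were separate for let-7f.

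Whether a copy share differed between the libraries was tested on the counts for all 24 forms that have exactly 2 copies and at least 20 counts in each library. Fisher's exact test, two-sided and Benjamini-Hochberg adjusted over the 24 forms, called let-7f at an adjusted p of 4.26e-07. It did not call let-7a, at an exact adjusted p of 0.0706, or let-7c, at 0.732. Over all forms, 33.3% were called, so 1 of 3 let-7 forms is the background share. With at least 100 counts per form, 15 forms were left, of which 9 were called, and let-7a was then called at an exact adjusted p of 0.0490. The test compares the reads of these libraries and not conditions, and it takes amplified reads as independent, so its p-values cover counting error only.

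Set beside the other forms with 2 copies, the let-7 forms were among those with most counts. By the summed level of both copies, let-7f ranked 1, let-7c ranked 3 and let-7a ranked 5 of 24. The same copy was more than 2 times higher in both libraries for 66.7% of the 24 forms, and for all 3 let-7 forms. The size of the mean log2 ratio had a median of 1.56 over the 24 forms, between the values of let-7a and let-7c, and that of let-7f ranked 3. The forms with larger ratios were Mir181b, at -6.62 ± 0.20 (SD, n = 2), and Mir3074, whose copy 2 had 0 counts and which is named after its values were seen. The copy ratios of let-7 moved between the libraries by 0.03 for let-7c, 0.15 for let-7a and 0.34 for let-7f on the log2 scale. The median over the 24 forms was 0.43 and the highest value 3.63. That median includes forms with few counts, such as Mir133a with 27 and 29. The 3 other forms with the highest sums moved by 0.33 for Mir92, 0.28 for Mir181b and 0.05 for Mir30c, none more than let-7f. In these, copy 1 held 92.6% and 94.0% for Mir92, 29.6% and 30.3% for Mir30c, and 1.06% and 0.808% for Mir181b.

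**Figure D3:**
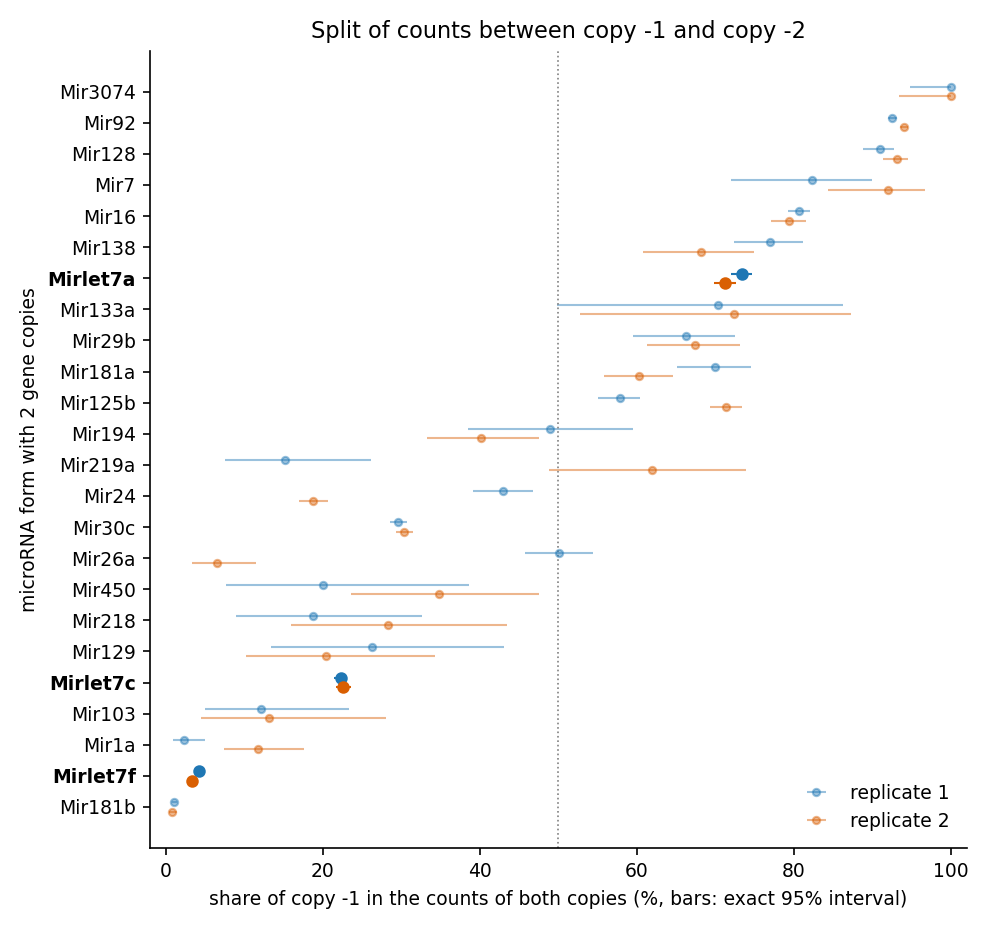
Share of copy 1 in the counts of both copies in percent (horizontal axis), with exact 95% intervals as bars, for the 24 forms with 2 gene copies (vertical axis), in replicate 1 and replicate 2. let-7a lies at 73.4% and 71.2%, let-7c at 22.2% and 22.6% and let-7f at 4.24% and 3.38%, with narrow intervals, while forms such as Mir26a and Mir219a lie far apart in the libraries.

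The level of every let-7 copy was slightly lower in replicate 2. On the log2 scale, with library sizes scaled by TMM, the ratio of replicate 2 to replicate 1 was -0.40 for Mirlet7f-1, -0.29 for Mirlet7c-2, -0.26 for Mirlet7a-1, -0.26 for Mirlet7c-1, -0.11 for Mirlet7a-2 and -0.05 for Mirlet7f-2. A two-sided exact binomial test on each gene's counts, Benjamini-Hochberg adjusted over the 320 genes past the low-count filter, called 5 of the 6 lower in replicate 2, all but Mirlet7a-2, which had an adjusted p of 0.0995. The background share of genes called lower was 33.8%, with 30.6% called higher and 64.4% called in either direction. The 320 genes include some with far fewer counts than the 6, such as Mir133b with 22 and 20, for which an equal ratio is less readily called. These shares are thus not those of genes with counts like the 6. The median of the 6 ratios was -0.26, beside 0.02 over all 320 genes, and the median size of a ratio over all genes was 0.44, above each of the 6.

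This test too sets 1 library against 1 and covers counting error only, so a call says nothing of the spread between hearts. Mirlet7f-2 was called at an exact adjusted p of 2.15e-05 for a ratio of -0.05, and 93.8% of the genes tested had a larger ratio in either direction. Mirlet7f-1 had the largest ratio of the 6, and 54.4% of the genes exceeded it. Without the low-count filter 4 of the 6 were called lower, beside 13.2% of the 722 genes then tested, and Mirlet7f-2 turned to 0.02, not called. With the column that ignores strand 3 were called lower, beside 30.3% of 297 genes, Mirlet7f-1 having no count there.

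**Figure D4:**
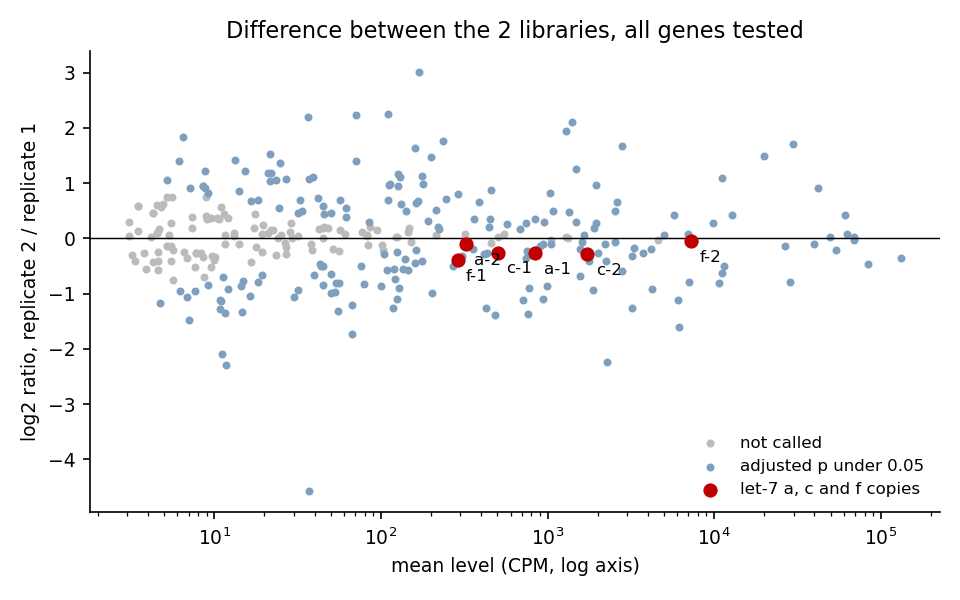
Log2 ratio of replicate 2 to replicate 1 (vertical axis) against the mean level in CPM (horizontal log axis) for the 320 genes tested, with genes at an adjusted p under 0.05 in blue, the others in grey and the let-7 copies in red, labelled by form and copy. The 6 let-7 copies lie between -0.40 and -0.05, close to the line at 0 within a cloud that reaches from -4.58 to 3.02.

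The single-locus members of the family, whose mature arms lie in 1 annotated hairpin each, had most of the let-7 counts. Mirlet7b, Mirlet7d, Mirlet7e, Mirlet7g, Mirlet7i and Mir98 have the same 5p seed as the 6 copies. Together they held 96.0% of the counts of the family in replicate 1 and 96.3% in replicate 2, and the 6 copies held 4.01% (3.97 to 4.04, Clopper-Pearson 95% interval) and 3.71% (3.67 to 3.75). The median of the mean levels was 673 CPM over the 6 copies and 55407 CPM over the single-locus genes. The groups overlapped: Mirlet7f-2 was above Mir98, which was at 2174 and 1826 CPM, and close to Mirlet7e at 7658 and 7458 CPM. The difference between the groups was not tested, because reads within the mature 5p arm can be counted for the single-locus genes and for none of the copies. Of the single-locus genes, 4 were called lower and 2 higher in replicate 2 by the same exact binomial test, with ratios from -0.46 for Mirlet7i to 0.91 for Mirlet7d. Mirlet7j and Mirlet7k could not be matched by symbol to a single counted gene, so they were not analysed here.

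Each copy lies near other microRNA genes on its strand. Mirlet7f-1 lies 261 bases from Mirlet7a-1, and Mirlet7d follows 1714 bases from Mirlet7f-1. Mirlet7d was at 28904 CPM in replicate 1 and 54650 CPM in replicate 2, and so moved up between the libraries while both copies in its cluster moved down. The log2 ratio of Mirlet7a-1 to Mirlet7d was -4.98 and -6.15, and that of Mirlet7f-1 to Mirlet7d was -6.46 and -7.76. On chromosome 15, Mirlet7b lies 621 bases from Mirlet7c-2 and was at 68432 and 70128 CPM, 36.0 and 44.6 times the counts of Mirlet7c-2. Reads within the mature 5p arm can be counted for Mirlet7d and Mirlet7b but are shared for the copies. These ratios therefore do not compare mature microRNAs.

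Mirlet7f-2 exceeded Mir98, its neighbour on chromosome X. Mir98 lies 785 bases from it in the same intron of Huwe1, and the log2 ratio of Mirlet7f-2 to Mir98 was 1.76 and 1.97, a mean of 1.87 ± 0.15 (SD, n = 2). This compares a gene whose 5p reads are shared with one whose 5p reads are not, so the ratio of the mature microRNAs was not measured.

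Mirlet7a-2 and Mirlet7c-1 lie in paralogous clusters with members of the miR-99 and miR-100 family and of the miR-125 family. Mir99a, 656 bases from Mirlet7c-1, was at 27786 and 25498 CPM, 51.1 and 55.5 times the counts of Mirlet7c-1. Mir100, 5211 bases from Mirlet7a-2, was at 4411 and 3919 CPM, 13.3 and 12.6 times the counts of Mirlet7a-2. These ratios were steady, with mean log2 values of -5.73 ± 0.08 for Mirlet7c-1 to Mir99a and -3.69 ± 0.05 for Mirlet7a-2 to Mir100 (SD, n = 2 each). Mirlet7c-1 and Mirlet7a-2 share the reads within their mature 5p arms with the other copy of their form, and such reads are counted for neither. The ratios to Mir99a and Mir100 therefore do not compare mature microRNAs either. Mir125b-2, 46522 bases from Mirlet7c-1, was below it at 154 and 150 CPM. Mir125b-1, 45114 bases from Mirlet7a-2, was at 211 and 373 CPM, below Mirlet7a-2 in replicate 1 and above it in replicate 2. The miR-125b genes are themselves copies of 1 form, and reads they share are counted for neither.

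**Figure D5:**
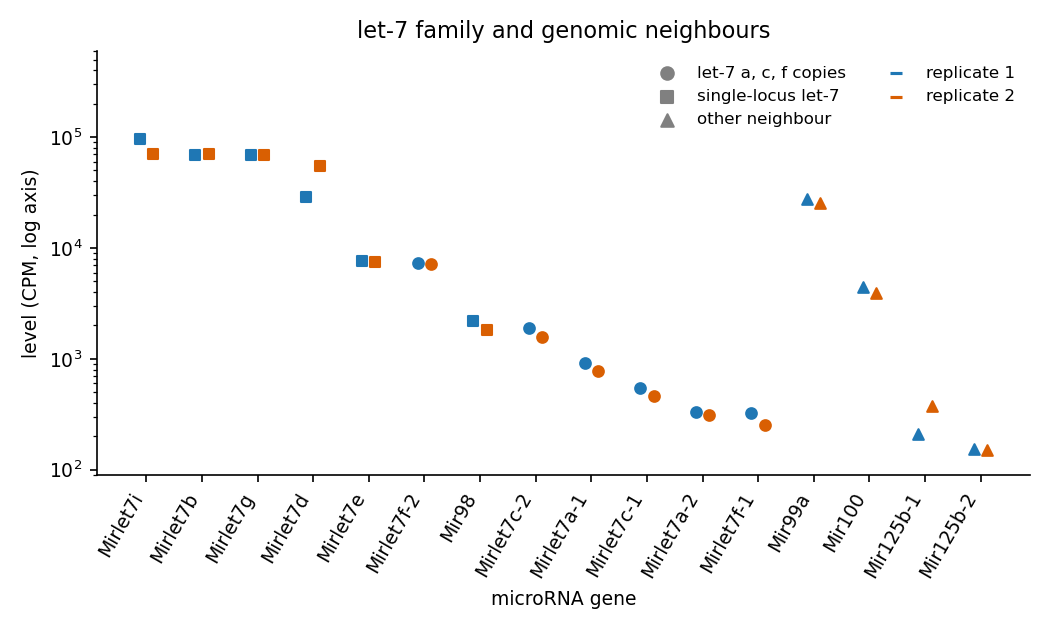
Level in CPM (vertical log axis) in replicate 1 and replicate 2 of the 12 let-7 family genes, ordered by mean, followed by the other genomic neighbours of the copies (horizontal axis). Circles mark the let-7 a, c and f copies, squares the single-locus let-7 genes and triangles the neighbours, and the copies other than Mirlet7f-2 stand lowest in the family, below Mir98 within each library.

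Over the 2 libraries, the gene nearest in level to each copy, by the distance of log2(CPM + 1), was Mir324 for Mirlet7a-1, Mir490 for Mirlet7a-2, Mir25 for Mirlet7c-1, Mir361 for Mirlet7c-2, Mir541 for Mirlet7f-1 and Mirlet7e for Mirlet7f-2. The distances ran from 0.05 for Mirlet7c-1 to 0.16 for Mirlet7a-1, and with 2 libraries they describe a level and not a pattern.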

How the data were processed

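Small RNA of mouse heart was measured in 2 libraries, 1 per replicate. The authors deposited raw read counts per microRNA gene, on mm10 with GENCODE M21 per the text that accompanies each file. The aligner and counter are not given in the sources used here. Of the 3 count columns, the sense column was used. Library totals excluded 4 rows without a gene (unmapped, mapped to several places, outside genes, ambiguous), which held 64.8% and 63.6% of the reads. All 2202 identifiers matched the annotation. The copies and the lists were chosen with earlier results of these data known. The genes named are the 6 copies, the single-locus let-7 genes, the neighbours of the copies, the 3 other forms with the highest summed level, the nearest gene in level and the tissue markers.

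CPM, the copy ratios and the intervals were computed in Python 3.11.15 with scipy 1.17.1. Library sizes and the low-count filter came from edgeR 4.0.16 (TMM, filterByExpr) in R 4.3.3, and DESeq2 1.42.0 gave the alternative size factors. The quasi-likelihood test needs a contrast, which 1 group does not give, so exact binomial and Fisher tests of the counts were used. They were tested on simulated counts that held counting error only, which does not show how they behave on amplified reads. Hairpins were aligned globally with biopython 1.88 (match 2, mismatch -1, gap opening -3, extension -1). Alternatives were the column without strand, other denominators, pseudocounts, scalings and filters, and each replicate left out.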

Additional observations from a re-analysis of the deposited data

How the results depend on the processing

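The order of the copies of let-7a, let-7c and let-7f was the same in every alternative run, but these runs hardly test it. Pseudocounts of 1 and 0.1 CPM, added to both copies, cannot reverse an order. In the column without strand the let-7a and let-7c copies have the same counts as in the sense column. Leaving out a replicate repeats the values of the other library. Without strand the let-7f log2 ratio was -14.20, a value set by the pseudocount because Mirlet7f-1 has no count there. Leaving out a replicate gave 1.31 to 1.46 for let-7a, -1.80 to -1.77 for let-7c and -4.84 to -4.50 for let-7f. Without strand the mean levels of Mirlet7a-1, Mirlet7a-2, Mirlet7c-1, Mirlet7c-2, Mirlet7f-1 and Mirlet7f-2 were 1095, 418, 651, 2255, 0 and 9442 CPM. Over all reads of the library they were 302, 115, 179, 621, 103 and 2605 CPM. Without the most abundant gene in the total, Mirlet7a-1, Mirlet7a-2, Mirlet7c-1, Mirlet7c-2 and Mirlet7f-2 were at 975, 372, 579.7, 2007 and 8398 CPM. Over uniquely mapped reads, Mirlet7a-2 was at 284 and Mirlet7f-2 at 6419 CPM. The share of the 6 genes was 1.39% without strand, 0.967% of uniquely mapped reads and 1.27% without the most abundant gene. The genes called lower in replicate 2 numbered 3 without strand, 6 with DESeq2 size factors, 4 without the low-count filter and 5 with plain totals or at 10 CPM or more, beside 30.3%, 35%, 13.2%, 32.8% and 36.6% of all genes tested in these settings. The let-7 forms whose copy share was called numbered 2 at 100 counts per form, where 9 of 15 forms were called, and 0 without strand, where 4 of 19 were called and let-7f could not be, as Mirlet7f-1 has no count. The ratio of Mirlet7f-2 between the libraries turned to 0.022 without the low-count filter. The log2 ratio of Mirlet7a-2 to Mir125b-1 ran from -0.26 without replicate 1 to 0.65 without replicate 2; the cause of either was not tested. Tests between the libraries need both, so they have no value with a replicate left out. No paired analysis was possible because the libraries form 1 group. All 6 genes have at least 956 counts in each library. How many reads mapped to several places came from let-7 was not measured.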
